A study of Mus musculus with 8 samples.

Results

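The baseline transcriptome described here is that of mouse oocytes without treatment, measured on 4 of the 8 microarrays of the series. The 4 arrays were taken by their label, and the other 4, from mice on a daily bisphenol S dose of 0.1 ng per g body weight, entered no result. The mice were female ICR mice aged 8 weeks on a diet free of phyto-oestrogens, and the labels name no vehicle for the untreated animals. The protocols describe the collection of ovaries, whereas the tissue field and the extraction step name oocytes, and they do not say how many oocytes or mice gave the RNA of 1 array. Samples with an RNA integrity number above 8 were accepted. Since nothing states that the arrays came from separate animals, their spread may be partly technical. The replicates are called control 1 to 4.

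The array carried 34472 probe sets, of which 29952 named exactly 1 gene symbol, and these gave 29439 genes, each represented by its brightest probe set. The 1902 probe sets with several symbols and the 2599 with none were set aside, as were 19 whose symbol had been turned into a date number in the deposited table. Every level below is a log2 RMA signal, on which a step of 1 is a doubling of the signal on the linear scale. A signal depends on the affinity of a probe set's probes as well as on the amount of RNA, so a rank is a rank of signal and not of transcript copies. Errors are the SD over n = 4 arrays.

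A growing mouse oocyte makes and stores the RNA that it will use later. When it is fully grown, transcription stops, and meiotic maturation, fertilisation and the first steps of the embryo run on the stored maternal RNA until the embryo's own genome is switched on. The oocyte also builds the zona pellucida, the glycoprotein coat to which sperm bind, and secretes growth factors that act on the granulosa cells around it. Many genes known almost only from oocytes lie in rodent gene clusters that arose by tandem duplication.

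Most genes lay at background. The background level, the 95th percentile over 1571 probe sets of olfactory receptors, vomeronasal receptors and Y-linked genes, was 4.60, and the median of that set was 3.98. Of the 29439 genes, 8125 (27.6%) lay above it and 21314 (72.4%) did not. Of the genes above it, 5383 lay between 4.60 and 6, 2029 between 6 and 8, 636 between 8 and 10, and 77 above 10. The median over all genes was 4.18, the top 1% (294 genes) began at 9.02, and rank 100 stood at 9.83. Of the single-symbol probe sets, 6709 lay above the level in all 4 arrays. The level itself falls among ties: Olfr142 and Gm22555, counted just above it, and Polm, counted just below it, all stood at 4.60 after rounding.

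The label of the samples was set against marker genes. Of 22 oocyte markers, 21 lay above background, with a median of 9.48 and 15 of them in the top 1%. Sohlh1, a transcription factor of early follicles, was the exception at 4.05 ± 0.09. Of 15 granulosa and cumulus markers, 3 lay above background, namely Nr5a2 (6.30), Gata4 (4.99) and Inha (4.99). The defining granulosa genes did not: Amh, the anti-Müllerian hormone, stood at 4.08 ± 0.10, Fshr, the follicle-stimulating hormone receptor, at 4.24 ± 0.06, and Cyp19a1, the aromatase, at 4.24 ± 0.11. Of 13 theca and stroma markers, 2 lay above background, Myh11, a smooth muscle myosin, at 5.85 and Hsd3b1, a steroid dehydrogenase, at 4.61, and Star, which carries cholesterol into mitochondria, stood at 4.11 ± 0.13. Above background were also 1 of 7 endothelial markers, Pecam1, at 6.62, and 1 of 7 epithelial markers, Krt8, at 4.81. None of 8 blood and immune markers did so. Of 7 markers of the embryo after genome activation, Usp17la alone lay above it, at 4.62, and of 7 male germ cell markers, Prm2 alone, at 6.92. Summed on the linear scale, the oocyte markers gave between 16255 and 19033 per array, the granulosa markers between 331 and 368, and the theca and stroma markers between 264 and 276. With every gene at the background level, the same lists would give 534, 364 and 315, and at the median of all genes 397, 271 and 235. The oocyte sum lay far above both. The granulosa sum lay near the higher of its values, and the theca and stroma sum between its values. Endothelial markers (196 to 210) and male germ cell markers (213 to 262) lay above 170, their sum at the background level. The blood and immune, epithelial and embryo sums lay under theirs. In tissue RNA, fewer cells of a type and less RNA per cell cannot be told apart.

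The highest signal of all belonged to Zar1, a maternal-effect gene whose protein binds stored mRNA and whose loss stops development in the zygote. Its values were 11.29, 11.45, 11.11 and 10.91 in control 1 to 4, with a mean of 11.19 ± 0.23. Its 4 arrays spread more widely than the means of the 10 highest genes, which lay between 10.95 and 11.19. Tcl1b1 and Tcl1, of a family whose founding member is a co-activator of the kinase Akt, followed at 11.10 ± 0.10 and 11.09 ± 0.09. Sod1, the cytosolic superoxide dismutase, stood at 11.04, 11.05, 11.18 and 11.02. Uchl1, a deubiquitinating enzyme abundant in oocytes and neurons, had 10.80, 10.87, 10.93 and 10.93. Skp1a, the subunit that joins F-box proteins to the SCF ubiquitin ligase, stood at 10.62 ± 0.06. Other genes among the 40 highest were Atp5l, a subunit of ATP synthase, at 10.63 ± 0.17, Parl, a rhomboid protease of mitochondria, at 10.62 ± 0.09, and Depdc7 at 10.59 ± 0.09. Spin1, a histone reader known as an abundant protein of the mouse egg, stood at 10.34 ± 0.08, Dnmt1, the maintenance DNA methyltransferase, at 10.33 ± 0.23, and Txnip, a regulator of thioredoxin, at 10.32 ± 0.10.

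**Figure D1:**
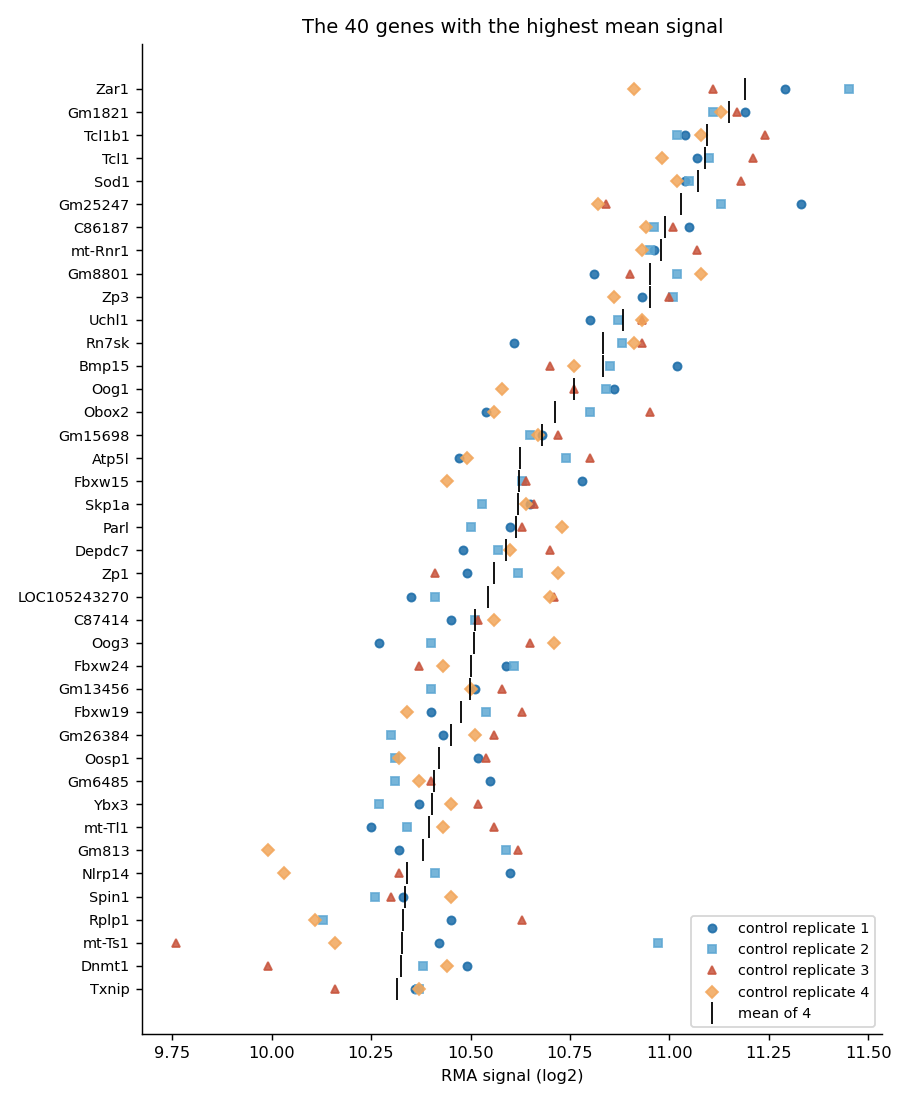
The 40 genes with the highest mean signal, from Zar1 at the top to Txnip, with the log2 RMA signal on the horizontal axis. Symbols are the 4 control arrays and the bar is their mean. Most genes overlap with their neighbours in rank, and mt-Ts1 spreads most.

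Of the 100 highest genes, 28 belonged to lists of oocyte genes, which hold 0.618% of all genes, and 7 to housekeeping lists, which hold 3.52%. A further 41 were other protein-coding genes, which make up 63.9% of all genes. Pseudogenes gave 7, against 4.80% of all genes, and the mitochondrial genome 5, against 0.0951%. The lists were drawn up with earlier results of these data known, so these shares are a description. Pcgf1 and Gdpd1 filled ranks 99 and 100 at 9.84 and 9.83, and Fabp5 and Gm9800 followed at 9.81 and 9.80, so the edge of the list falls within the spread of single genes. Of the 100 genes, 74 lay among the 100 highest of every single array, and 99 among the 200 highest of every array.

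The coat and the secreted factors were near the top. Zp3, the coat protein that carries the sperm-binding site in the classical model, had 10.93, 11.01, 11.00 and 10.86. Zp1, which cross-links the coat filaments, had 10.49, 10.62, 10.41 and 10.72, and Zp2, which sperm bind and which is cleaved after fertilisation, had 10.35, 10.31, 10.15 and 10.12. The 3 genes ranked 10, 22 and 46. The other 2 measured symbols that begin with Zp make no coat protein of the mouse. The pseudogene Zp4-ps stood at 4.65 ± 0.15, and Zp3r, a sperm protein, at 4.34 ± 0.12.

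Bmp15 and Gdf9 encode the growth factors through which the oocyte directs granulosa cells. Bmp15 had 11.02, 10.85, 10.70 and 10.76, and Gdf9 had 9.84, 9.97, 9.77 and 9.87. Bmp6, a relative of both, stood at 6.88 ± 0.16, and Fgf8 at 4.94 ± 0.28, where control 1 (4.53) lay under the background level. Figla, the transcription factor that switches on the zona genes, stood at 5.11 ± 0.31, low in the list of 8 measured oocyte transcription factors, of which 7 lay above background. Nobox, a homeobox factor of the primordial follicle, stood at 9.57 ± 0.06, and Lhx8 at 6.88 ± 0.07.

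Several gene families that are clustered in the genome had members near the top. Of 23 measured Fbxw genes, which encode F-box proteins with WD40 repeats, 19 lay above background, 10 were in the top 1% and 7 in the 100 highest. All 15 that lie in chr9:109139454-109790660 (GRCm38.p6, coordinates from RefSeq) lay above background, with a median of 9.78 and a range of 4.91 to 10.62. Of the 8 Fbxw genes elsewhere, 4 did, with a median of 4.60 and a highest level of 5.78. Fbxw15 had 10.78, 10.63, 10.64 and 10.44, and Fbxw24 had 10.59, 10.61, 10.37 and 10.43. Fbxw23, the lowest of the cluster, had 4.92, 5.03, 4.87 and 4.83, so neighbours in 1 cluster differed by over 5 units in every array. Fbxw7, the tumour suppressor that marks cyclin E for destruction, and Fbxw2 lie elsewhere and stood at 4.29 ± 0.07 and 4.30 ± 0.01. The Fbxw genes of the cluster are similar copies of each other, and the share of signal that their probe sets take from each other was not tested.

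The Oosp and Omt2 genes, which encode small secreted proteins of the oocyte and oocyte maturation transcripts, were all 5 above background and 4 of them in the 100 highest. Oosp1 had 10.52, 10.31, 10.54 and 10.32, and it lies with Oosp2 (10.11 ± 0.15) and Oosp3 (10.11 ± 0.19) in chr19:11647284-11711858. Omt2b stood at 10.20 ± 0.07 and Omt2a at 7.91 ± 0.17. All 6 Tcl1 genes lay above background, the lowest being Tcl1b5 at 8.25 ± 0.47, with 7.55 in control 1 and between 8.44 and 8.51 in the other arrays.

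The remaining oocyte families were split between high and background members. Of 8 measured Obox homeobox genes, 4 lay above background: Obox2 had 10.54, 10.80, 10.95 and 10.56, Obox1 stood at 8.42 ± 0.52, and Obox8 at 4.05 ± 0.05, at background. Obox5, counted among the 4, lay at the edge of background at 4.61 ± 0.13. Without control 1 or without control 3, the count was 3. Of 17 oogenesin and Prame-like genes, 5 lay above background. Oog1 had 10.86, 10.84, 10.76 and 10.58, Oog3 had 10.27, 10.40, 10.65 and 10.71, and Pramef12 stood at 9.41 ± 0.29, while Pramel5 stood at 3.85 ± 0.11. Of 19 Nlrp genes, 10 lay above background. These were the oocyte members, led by Nlrp14 with 10.60, 10.41, 10.32 and 10.03, Nlrp4b at 9.57 ± 0.38 and Nlrp4a at 9.36 ± 0.17. Nlrp3 and Nlrp6, which form inflammasomes in immune and epithelial cells, stood at 3.88 ± 0.07 and 3.90 ± 0.02, and the pseudogene Nlrp1c-ps stood at 3.77 ± 0.03. Nlrp9a, at 5.05 ± 0.14, lay between the high and the low Nlrp genes. The others did not overlap in any array, but they were split by their mean over these same arrays, so this is no separate result. These 3 lists had medians of 4.42, 4.21 and 5.05, against 4.18 over all genes.

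**Figure D2:**
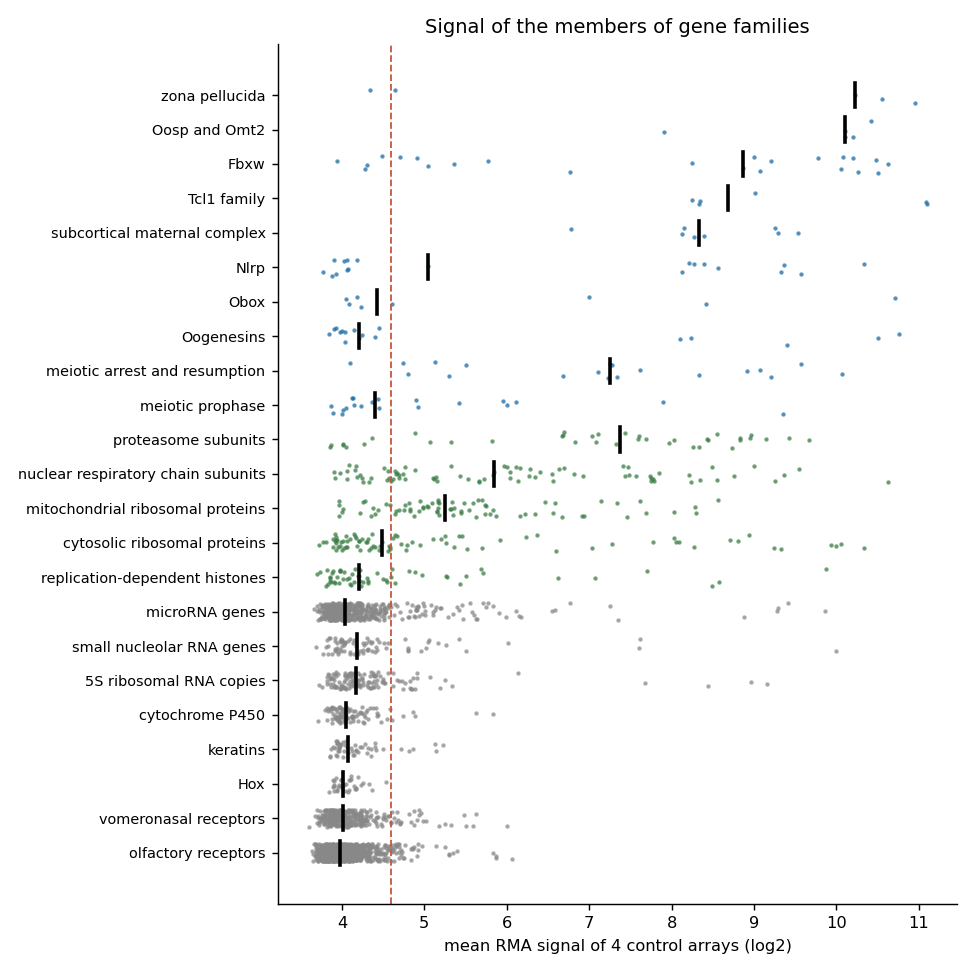
Mean log2 RMA signal of the 4 control arrays for every measured member of 23 gene lists, 1 point per gene, with the list's median as a black bar and the background level of 4.60 as a dashed line. Oocyte lists are blue, housekeeping lists green, and other lists grey. Fbxw, Nlrp, Obox and the oogenesins split into a high and a background set, while receptors, Hox genes and keratins stay near background.

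Genes that act in the egg and early embryo were measured in functional groups. All 8 genes of the subcortical maternal complex, a protein assembly under the egg surface that embryos need to divide, lay above background. Padi6 led them at 9.54 ± 0.12, Nlrp5 stood at 8.27 ± 0.10, and Ooep was lowest at 6.78 ± 0.12. Of 19 genes of meiotic arrest and resumption, 18 lay above background, with a median of 7.25. Wee2, the oocyte kinase that holds CDK1 inactive, stood at 10.07 ± 0.11, Ccnb1, cyclin B1, at 9.58 ± 0.12, and Mos, the kinase that keeps eggs in metaphase, at 9.08 ± 0.15. Adcy3, an adenylyl cyclase known for keeping cAMP high in the arrested rodent oocyte, was the exception at 4.10 ± 0.08.

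Among 12 measured genes of maternal mRNA storage, 11 lay above background, with Zar1l at 9.62 ± 0.24 after Zar1. Of 9 decay genes, 7 did: Btg4, the adaptor that brings the deadenylase to maternal mRNA, stood at 10.30 ± 0.06, and Dcp1a, a decapping factor, at 10.00 ± 0.20. Zfp36l2, an mRNA-binding protein needed for female fertility in mice, stood at 4.00 ± 0.06. Of 14 maternal chromatin genes, 13 lay above background. Dppa3, which protects the maternal genome from demethylation, had 10.23, 9.94, 10.09 and 9.72, and H1foo, the oocyte linker histone, had 9.14, 9.59, 9.68 and 8.66. Genes of meiotic prophase, a stage that oocytes pass before birth, were lower, with 8 of 20 above background and a median of 4.40. Syce2 and Tex12, whose proteins form the central element of the synaptonemal complex together, stood at 9.35 ± 0.09 and 7.90 ± 0.40, whereas Spo11, which makes the meiotic DNA breaks, stood at 3.89 ± 0.12 and Stra8, the gene of meiotic entry, at 3.87 ± 0.03. Ddx4, the germ cell RNA helicase, stood at 6.28 ± 0.23.

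Promoter sequence differed along the rank order. Vertebrate promoters fall into CpG-rich ones, common at genes active in most tissues, and CpG-poor ones, common at genes of few tissues. The sequences of 4 promoters are shown here, as the 250 bases before the RefSeq gene start (GRCm38.p6) with each CpG in capitals, because they show the contrast among genes of the top 40. Fbxw15 and Fbxw24 stand for the cluster, Zp3 for the coat, and Sod1 for a gene used by most cells.
Fbxw15, chr9:109568263-109568512, minus strand: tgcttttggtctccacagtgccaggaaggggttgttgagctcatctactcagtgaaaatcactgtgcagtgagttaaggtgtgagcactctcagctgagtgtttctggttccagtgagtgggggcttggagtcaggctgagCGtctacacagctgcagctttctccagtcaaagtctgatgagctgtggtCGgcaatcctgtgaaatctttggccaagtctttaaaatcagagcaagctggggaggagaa
Fbxw24, chr9:109626060-109626309, minus strand: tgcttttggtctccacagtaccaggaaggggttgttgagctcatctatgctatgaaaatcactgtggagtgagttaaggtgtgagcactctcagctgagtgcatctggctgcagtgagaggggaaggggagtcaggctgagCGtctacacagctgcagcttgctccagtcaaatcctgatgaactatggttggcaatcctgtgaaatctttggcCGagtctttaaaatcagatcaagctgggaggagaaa
Zp3, chr5:135979855-135980104, plus strand: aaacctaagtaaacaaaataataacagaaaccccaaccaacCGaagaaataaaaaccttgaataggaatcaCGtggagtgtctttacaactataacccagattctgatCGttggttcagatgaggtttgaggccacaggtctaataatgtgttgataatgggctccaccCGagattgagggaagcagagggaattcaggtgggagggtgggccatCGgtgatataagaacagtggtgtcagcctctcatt
Sod1, chr16:90220512-90220761, plus strand: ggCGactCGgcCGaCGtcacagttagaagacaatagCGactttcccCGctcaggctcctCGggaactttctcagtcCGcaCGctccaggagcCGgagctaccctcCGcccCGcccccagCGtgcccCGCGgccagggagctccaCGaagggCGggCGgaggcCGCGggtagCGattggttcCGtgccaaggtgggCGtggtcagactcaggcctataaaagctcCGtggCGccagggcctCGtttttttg
The Fbxw15 and Fbxw24 windows hold 2 CpG each, the Zp3 window 5 and the Sod1 window 26. All 4 genes lie above 10 on the signal scale.

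Over all 16052 protein-coding genes with a promoter in the RefSeq table, 32.0% had fewer than 5 CpG in this window. The share was 42.3% of 10502 genes not above background, 13.7% of 3577 between 4.60 and 6, and 7.61% of 1471 between 6 and 8. It was 10.9% of 304 between 8 and 9, 18.9% of 148 between 9 and 10, and 48.0% of the 50 genes above 10, with a 95% Wilson interval of 34.8% to 61.5%. CpG-poor promoters were thus most common at both ends of the rank order. The low end holds the olfactory and vomeronasal receptors that helped to set the background level. Without them, 35.4% of 9349 genes not above background were CpG-poor. The intervals of the bands between 4.60 and 10 did not overlap with that of the genes above 10. With the oocyte lists left out, 20.7% of the 29 genes above 10 were CpG-poor (interval 9.85% to 38.4%), against 6.36% of 283 genes between 8 and 9 (4.06% to 9.83%), 12.5% of 128 between 9 and 10 (7.84% to 19.3%) and 13.7% of 3556 between 4.60 and 6 (12.6% to 14.9%). Outside the oocyte lists, the interval of the genes above 10 thus overlapped with those between 9 and 10 and between 4.60 and 6. In a further restriction, only the highest gene of each symbol stem was kept, the stem being what precedes the first digit. The share was then 34.2% of 38 genes above 10 (21.2% to 50.1%) and 5.10% of 196 between 8 and 9 (2.79% to 9.14%). It was 31.5% of 2285 genes not above background. Such a stem is not always a family, since all Gm symbols share 1 stem. Keeping the highest gene also selects by the signal that sets the bands. The restrictions and the limit of 5 CpG were chosen after the values were seen. The intervals cover counting error only, and neighbouring family members are not independent.

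**Figure D3:**
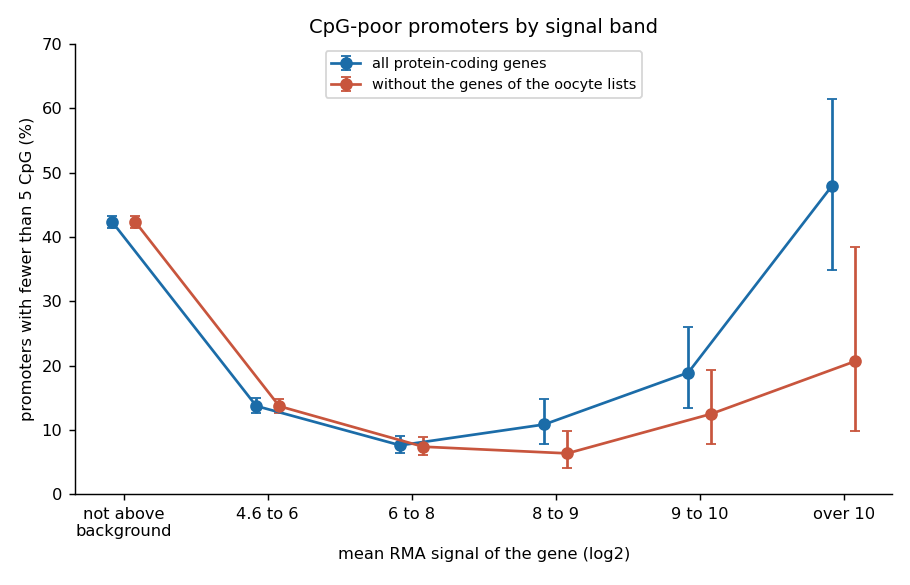
Share of protein-coding genes whose promoter window of 250 bases has fewer than 5 CpG, in percent, by band of mean log2 RMA signal. Blue points are all genes and red points the genes outside the oocyte lists, with 95% Wilson intervals. The share is lowest between 6 and 9 and rises towards both ends of the signal range. Without the oocyte lists, the interval above 10 overlaps with those between 9 and 10 and between 4.60 and 6.

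By list, all 4 Oosp and Omt2 promoters in the table and all 5 Obox promoters were CpG-poor, as were 13 of 15 Nlrp, 12 of 15 oogenesin and 5 of 6 Tcl1 promoters. Other oocyte lists were mostly CpG-rich, with 1 of 14 promoters CpG-poor for meiotic arrest and resumption, 1 of 18 for meiotic prophase, 2 of 11 for maternal mRNA storage, 1 of 6 for mRNA decay and 3 of 12 for maternal chromatin. All 12 Fbxw promoters of the chromosome 9 cluster had between 0 and 4 CpG, and the 6 Fbxw promoters elsewhere had between 7 and 27. Of the housekeeping lists, 3 of 32 proteasome and 3 of 67 nuclear respiratory chain promoters were CpG-poor. Among background families, 906 of 927 olfactory receptor promoters were CpG-poor, but 3 of 21 Hox promoters were. The E-box, CANNTG, reads the same on both strands and is the motif bound by FIGLA and other basic helix-loop-helix factors. It occurred in 62.2% of all windows, in 80.0% of those of genes above 10 and in 65.3% of those not above background, so its presence is common everywhere. In the Zp3 window, CACGTG began 181 bases before the start, CAGATG 134 and CAGGTG 55. CACGTG is in 6.91% of all windows and contains a CpG. In both the Fbxw15 and the Fbxw24 window, CAGCTG began 159 and 101 bases before the start, and it was in 11 of the 12 cluster windows against 11.8% of all windows. In the 57 of 66 pairs of cluster windows that aligned over at least 200 bases, between 70.4% and 98.4% of aligned bases were shared, with a median of 91.0%. The other 9 pairs all held Fbxw23 and gave alignments as short as 6 bases. Fbxw23, the low member, also had a CpG-poor window, with 3 CpG and 2 E-boxes. Fbxw14, at 6.77 ± 0.25, shared 97.7% of aligned bases with Fbxw19, at 10.48 ± 0.13. Motif matches describe letters in the window and no binding.

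Housekeeping lists ranged from background to high levels. Of 38 proteasome subunits, 31 lay above background with a median of 7.38, led by Psmb1 at 9.67 ± 0.32, while Psma5 stood at 3.86 ± 0.10. Of 80 nuclear respiratory chain subunits 61 did, with a median of 5.84, and of 74 mitochondrial ribosomal proteins 60 did, with a median of 5.25 and Mrps22 highest at 8.56 ± 0.22. Of 58 replication-dependent histone genes 17 did. Hist1h2ba, a histone H2B variant known from testis and oocytes, was highest at 9.88 ± 0.36, with 9.42, 9.76, 10.19 and 10.15.

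Some genes that nearly every cell uses gave no signal above background from their single-symbol probe set. Of 83 cytosolic ribosomal protein genes, 37 (44.6%) lay above it. Rplp1 had 10.45, 10.13, 10.63 and 10.11, Rps12 stood at 10.05 ± 0.22 and Rpl41 at 9.99 ± 0.22. Actb, cytoplasmic beta-actin, stood at 4.11 ± 0.14, and Gapdh, the glycolytic enzyme often used as a reference, at 8.21 ± 0.49. Of the 46 ribosomal protein genes not above background, 16 were also named by a probe set with several symbols, and 12 of those 16 lay above background there. The examples that follow were chosen after their values were seen. Rpl31 stood at 4.38 in its own probe set and at 10.20 ± 0.22 in the shared one, Rpl19 at 4.21 and 9.92 ± 0.25, and Rps27a at 3.96 and 9.49 ± 0.26. Taking the higher of both probe sets, 49 of the 83 genes (59.0%) lay above background. For these genes a background signal in the single-symbol probe set does not show that the RNA is absent.

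Pseudogene and retrogene symbols stood high where the gene they derive from did not. Gm1821, described as a ubiquitin pseudogene, had rank 2, with 11.19, 11.11, 11.17 and 11.13. Ubb, a polyubiquitin gene, stood at 4.32 ± 0.22, and was looked up after the pseudogene's value was seen. Gm8801, a pseudogene of Ppp1r10, stood at 10.95 ± 0.12, and Ppp1r10 itself at 6.80 ± 0.21. Gm15698, described as a copy of Tceb2, stood at 10.68 ± 0.03, and Tceb2 at 4.71 ± 0.53. LOC105243270, described as like ribosomal protein S2, stood at 10.54 ± 0.19, and Rps2 at 4.46 ± 0.21. Signal from a parent RNA on a copy's probes and signal from the copy's own RNA cannot be told apart. Of 1009 genes that RefSeq types as pseudogenes, 31.5% lay above background, and of 342 typed as transcribed pseudogenes, 23.7%. The share was 33.9% of 20052 protein-coding genes and 7.35% of 2898 long non-coding RNA genes.

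Genes known from other tissues lay mostly at background. Of 1127 olfactory receptor genes, 41 (3.64%) lay above a level that was set partly on them, and the highest, Olfr643, stood at 6.07 ± 0.32. Of 316 vomeronasal receptor genes 26 did. None of 39 Hox genes, of 37 taste receptors or of 35 cornified envelope genes did, and the highest Hox gene, Hoxd12, stood at 4.53 ± 0.06. Of 100 cytochrome P450 genes 6 did, led by Cyp2j12 at 5.83 ± 0.22, and of 51 keratins 6 did. Shares were higher for Ceacam and Psg genes, with 5 of 28 (17.9%) above background, and for cystatins and stefins, with 3 of 15 (20%). Of 13 interferon alpha genes, 5 (38.5%) lay above background, a larger share than the 27.6% over all genes. The highest of them, Ifna14, stood at 5.98 ± 0.20. No gene of these families was in the top 1%. Of 32 chemokine genes 5 lay above background, and of 33 interleukin genes 4. Among them Ccl2, which draws monocytes, had 7.12, 7.59, 7.67 and 7.21, and Il17b had 6.47, 6.95, 7.23 and 6.93, so both stood well above background in all 4 arrays.

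MicroRNA genes were another background family with a few high members. Of 498, without 3 transcripts of microRNA host genes, 60 (12.0%) lay above background and 4 were in the top 1%. The sequences of 2 of those 4 and of let-7a, a widely used reference microRNA, are given from RefSeq (GRCm38.p6) as mature forms, with the seed, bases 2 to 8, in capitals. They are shown because their seeds, and so the targets they could pair with, all differ.
miR-3473c, chr1:191998602-191998623, minus strand: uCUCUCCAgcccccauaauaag
miR-703, chr5:98475616-98475636, minus strand: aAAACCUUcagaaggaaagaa
let-7a-5p, chr13:48538239-48538260, minus strand: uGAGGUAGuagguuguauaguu
Mir3473c had 9.94, 9.73, 8.68 and 8.84, Mir703 had 8.95, 9.11, 9.57 and 9.48, and Mirlet7a-1 had 7.44, 8.37, 7.05 and 6.53. Mir449b, the highest, had 10.15, 9.90, 9.62 and 9.79, and Mir684-1 stood at 9.41 ± 0.32. Related genes were mostly not above background. Mir449a stood at 4.015 and Mir449c at 4.02, and Mir3473a, Mir3473b and Mir3473d at 4.35, 3.93 and 4.26. Mirlet7a-2, another let-7a gene, stood at 4.07. Mir684-2, in contrast, was high at 8.885. The control arrays split into 1 and 2 against 3 and 4 for Mir3473c and Mir703, in opposite directions. Mir3473c lies inside Traf5, whose own signal was 4.34 ± 0.09, and Mir703 inside Cfap299, at 4.04. Over all microRNA genes above background that lie inside a measured gene, that gene was above background in 5 of 13 cases. For microRNA genes not above background it was so in 85 of 196. Genes were matched by position and not by strand, so a containing gene may lie on the opposite strand. The array gives no separate value for the mature form, so a signal here may come from any RNA that covers the hairpin.

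The signals of the 4 arrays were closely correlated. Over all single-symbol probe sets, Pearson's r between 2 arrays lay between 0.967 and 0.979, and over genes above background between 0.950 and 0.971. These are values across genes, which are not independent replicates. The median SD was 0.20 over genes above background and 0.09 over the others. By band, the median SD was 0.19 between 4.60 and 6, 0.23 between 6 and 8, 0.20 between 8 and 10, and 0.13 above 10. Of the genes above background, 4540 (55.9%) had a range under 0.5 and 675 (8.31%) a range over 1. The most even genes above 8 were Plpp3, with 8.24 in 3 arrays and 8.23 in control 3, Ywhae at 9.45 ± 0.02, and Gja4, the connexin that couples oocyte and granulosa cells, with 9.80, 9.76, 9.78 and 9.80.

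**Figure D4:**
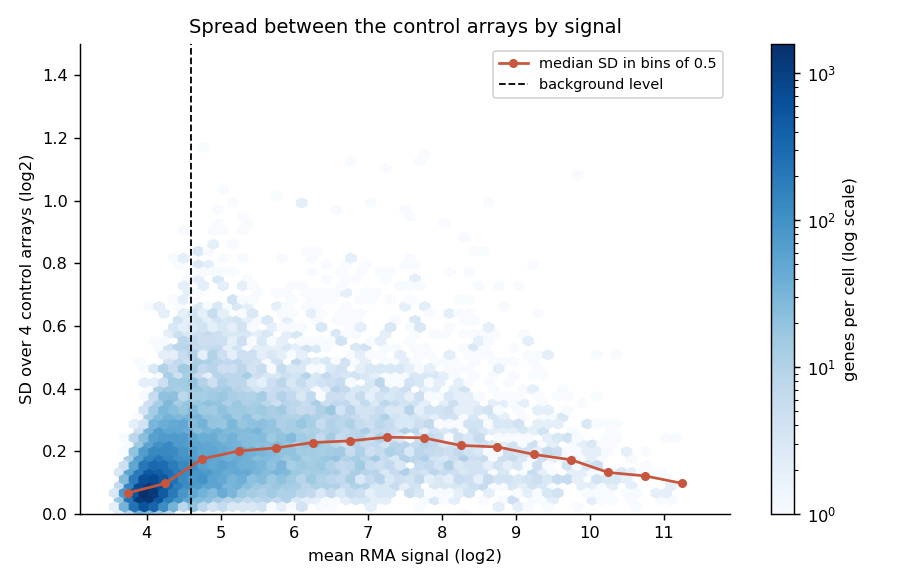
SD over the 4 control arrays against the mean log2 RMA signal of 29439 genes, shaded by the number of genes per cell on a log scale. The red line is the median SD in bins of 0.5 and the dashed line the background level. The median SD is near 0.1 at background, highest between 6 and 8, and lower again above 10.

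Spread was largest in genes of short RNAs. Of genes above background with a RefSeq length under 300 bases, 26.7% had an SD over 0.5, and of those over 10000 bases, 2.26% did. Over all genes above background it was 5.78%. The gene with the largest SD, Gm25383, a predicted small nucleolar RNA, had 4.36, 4.68, 3.67 and 6.41. Rpph1, the RNA part of ribonuclease P, had 6.17, 7.95, 8.92 and 7.77. Hist1h2bc, a histone H2B gene, had 7.29, 8.06, 9.07 and 6.40. Gm25383 was thus under the background level in control 3, where the other 2 were highest. Of the 13 small nuclear RNA genes among the 100 most variable, 8 were highest in control 3 and lowest in control 4. The median level of those 13 was 5.00, near background. Over all 100, control 3 was highest for 51, control 4 lowest for 39 and control 1 lowest for 33. The 100 genes were chosen by their spread over these arrays, and a gene near background can pass through 1 high array. These counts are thus no separate result.

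**Figure D5:**
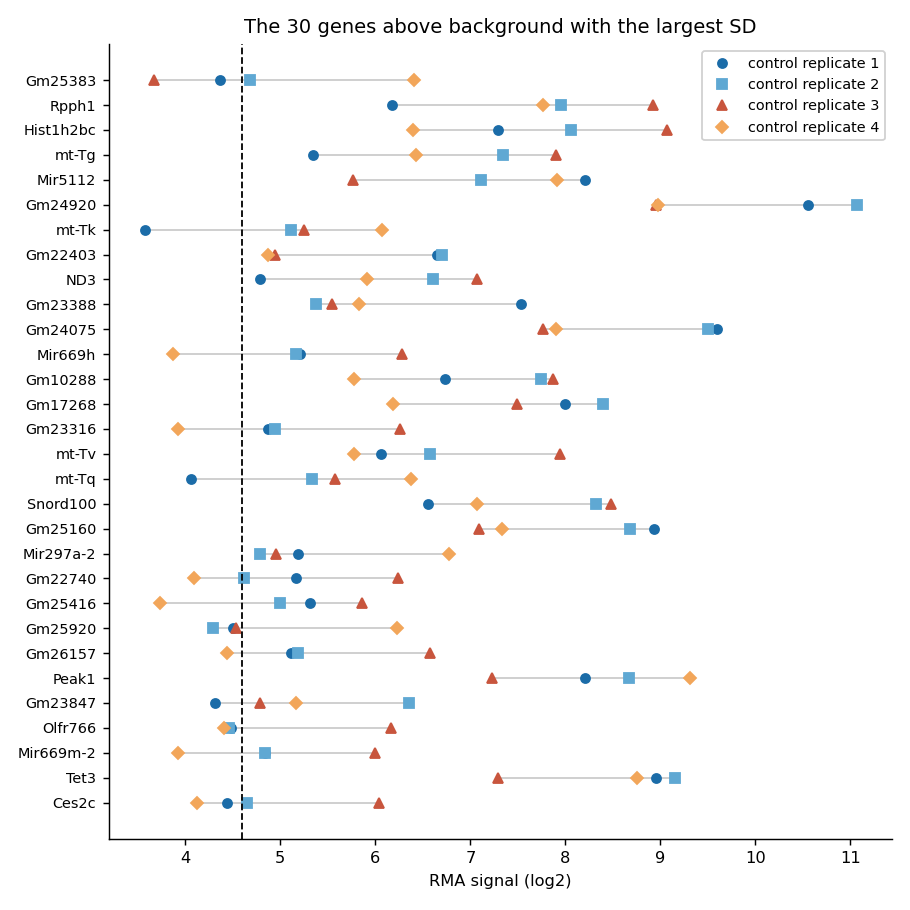
Log2 RMA signal in each of the 4 control arrays for the 30 genes above background with the largest SD, with a grey line over the range and the background level dashed. Several predicted small RNA genes have control 3 highest and control 4 lowest, while ND3 and the mitochondrial transfer RNA genes mt-Tg, mt-Tk and mt-Tq have control 1 lowest.

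The mitochondrial genome was high and uneven. It encodes respiratory chain proteins, ribosomal RNAs and transfer RNAs, which are cut from long joint transcripts. The ribosomal RNA genes mt-Rnr1 and mt-Rnr2 stood at 10.98 ± 0.06 and 9.98 ± 0.07. Of 9 protein genes whose probe set lies on it, 8 lay above background, with a median SD of 0.65 among them. The probe set named ND4L, at 6.16 ± 0.83, is placed on chromosome 1 by the deposited annotation and is not among the 9. COX1, of complex IV, had 10.13, 10.17, 10.27 and 9.90. ND4, of complex I, had 8.65, 9.79, 10.00 and 8.43, and ND3, also of complex I, had 4.78, 6.61, 7.07 and 5.91. Over the 8 genes, the median deviation from a gene's mean was -0.79 in control 1, 0.39 in control 2, 0.62 in control 3 and -0.20 in control 4. The 61 nuclear respiratory chain subunits above background were also lowest in control 1 and highest in control 3, but by less, with -0.22, -0.02, 0.23 and 0.05. That order was not particular to the respiratory chain. The 60 mitochondrial ribosomal protein genes above background had -0.19 in control 1 and 0.18 in control 3. For the 1031 predicted genes (Gm) above background it was -0.16 and 0.15. Not every list had this order, as splicing proteins were highest in control 4, at 0.08. Transfer RNA genes reached an SD of 1.12 at mt-Tg, with 5.34, 7.34, 7.90 and 6.43, and of 1.04 at mt-Tk, with 3.57, 5.11, 5.25 and 6.07.

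The maternal chromatin genes did not share 1 order of the arrays. Of the 14 genes of that list, 7 were lowest in control 3 and 5, among them Dppa3, in control 4, and the list's median deviation in control 3 was -0.05. Tet3, the dioxygenase that oxidises methylated cytosine in the zygote, had 8.96, 9.16, 7.29 and 8.75. Uhrf1, the partner of Dnmt1, had 8.74, 8.63, 7.32 and 8.62, and Dnmt1 itself had 10.49, 10.38, 9.99 and 10.44. All 3 were lowest in control 3, and Tet3 and Uhrf1 were picked after their values were seen. Gene length moved with the arrays as well. In control 3 the median deviation was 0.20 for genes under 300 bases and 0.21 for those of 300 to 1000 bases. It was 0.10 for those of 1000 to 10000 bases and -0.01 for those over 200000 bases. In control 1 these classes had -0.12, -0.27, -0.15 and -0.08. The part of RNA quality or of the number of cells in these differences was not tested.

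The column names of the deposited table fall into a numbered pair, control 1 and 2, and a lettered pair, control 3 and 4, and the sources used here do not say what the names stand for. Of the genes above background, 678 (8.34%) were higher in both numbered arrays than in both lettered ones, and 2684 (33%) were higher in both lettered ones. The 2 directions were thus unequal. The arrays also differed as a whole. Their own background levels were 4.59 and 4.58 in the numbered arrays, against 4.80 and 4.70 in the lettered ones, and their upper quartiles were 4.60 and 4.65 in the numbered arrays, against 4.76 and 4.75 in the lettered ones. The part of this offset in the counts was not tested. Among the 100 most variable genes 13 and 20 did so, and these were chosen by their spread. Gm24920, a predicted small nucleolar RNA in the 100 highest, had 10.56 and 11.07 in the numbered arrays, against 8.96 and 8.98 in the lettered ones. Its SD of 1.09 was the largest among the 100 highest genes.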

How the data were processed

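Total RNA of oocytes was measured on MoGene 2.1 ST arrays, and only the 4 control arrays were analysed. Per the file headers, the authors summarised probe sets to gene-level log2 signals by RMA and annotated them with NetAffx release 36 on mm10. The software was the Transcriptome Analysis Console, per the submitters' processing notes. The deposited log2 values have 2 decimals and were used without further scaling. The 4 control columns of the deposited workbook each equalled 1 control array value for value. With arrays, precision is limited by their number.

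Per gene, the brightest single-symbol probe set was taken. In RefSeq (GRCm38.p6), 22695 genes were found through an accession, 3886 through the symbol and 134 through a synonym, and 2724 were not found. Promoter windows, microRNAs and coordinates are from its tables. The controls were compared with no other group and no model was fitted across genes. The numbered and the lettered control columns were set side by side, and Dixon's criterion was applied to 140 of the named genes. Alternatives were quantile normalization, median centring, the median of arrays, other background sets and percentiles, other handling of several or identical probe sets, and leaving out each array. The ranking and scaling steps were tested on simulated data. Python 3.11.15, pandas 2.3.3, SciPy 1.17.1, Biopython 1.88 and matplotlib 3.10.9 were used.

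Members and lists were chosen with earlier results of these data known, and the patterns of 3 lists (chemokines, cystatins, interleukins) were corrected after unrelated symbols had matched. The named genes are drawn from the 40 highest, the 20 with the largest SD above background, the 10 with the smallest SD above a level of 8, the 3 highest and the lowest of each list, genes at the edges of rank 100 and of background, and a fixed set of oocyte, somatic and reference genes. Named outside this rule, after their values were seen, were Fbxw2, Fbxw7, Fbxw14, Fbxw23, Figla, Mir449a, Mir449c, Mir684-2, Mir3473a, Mir3473b, Mir3473d, Mirlet7a-1, Mirlet7a-2, ND4L, Nlrp3, Nlrp6, Nlrp9a, Obox5, Oosp2, Ppp1r10, Rpl19, Rpl31, Rps2, Rps27a, Spo11, Tceb2, Tet3, Traf5, Cfap299, Ubb, Uhrf1, Zp4-ps and mt-Rnr2. Some genes that the rule names are not reported here.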

Additional observations from a re-analysis of the deposited data

Results flagged for a closer look

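Among 140 genes named above, 9 (6.43%) had 1 control array far from the other 3, so that the gap to the nearest array, as a share of the whole range, was above Dixon's 95% critical value for 4 samples. Chance flags about 1 in 20 such groups when they are chosen without regard to their values. The 140 genes were partly chosen by level or spread, or after their values were seen, so their share cannot be compared with that rate. Of those flagged, Uhrf1, Tceb2 and Fbxw14 were named after their values were seen, and Plpp3 for its small SD. Low in control 3 were Uhrf1 at 7.32, with 8.62 to 8.74 in the other arrays, Txnip at 10.16, with 10.36 to 10.37, and Plpp3 at 8.23, with 8.24 in the others. Low in control 1 were Tcl1b5 at 7.55, with 8.44 to 8.51, Tceb2 at 3.91, with 4.94 to 5.02, and Fbxw14 at 6.40, with 6.85 to 6.93. In control 2, Skp1a was low at 10.53, with 10.64 to 10.66, and Cyp19a1 high at 4.40, with 4.17 to 4.19. Omt2b was high in control 4, at 10.30 with 10.15 to 10.17 in the others. For Plpp3 the gap is near the rounding of the deposited values.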

How the results depend on the processing

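The choice of background mattered most. With the 99th percentile of the reference set the background level was 5.31 in place of 4.60, and 4589 probe sets and 4544 genes lay above it in place of 8209 and 8125. With Y-linked genes alone the level was 4.92. The median SD was 0.11 over all single-symbol probe sets in place of 0.20, and the median range was 0.45. Leaving out each control array in turn gave a background level of 4.59 to 4.63, 7956 to 8435 probe sets and 7872 to 8348 genes above it, and 96 to 99 of the 100 highest genes. It gave a median SD of 0.18 to 0.21, 24 lists with a median above background, and 21 oocyte markers above it. Of 170 recomputed list counts, 9 moved by more than 1.5 times: the theca and stroma markers had 1 gene above background in place of 2 without control 3 or 4, with the 99th percentile and with Y-linked genes alone. With the 99th percentile, 37 mitochondrial ribosomal protein genes, 29 microRNA genes, 2 cytochrome P450 genes and 1 granulosa marker stayed above background, and with Y-linked genes alone 2 cytochrome P450 genes. Of 140 named gene levels, quantile normalization moved 1 by more than its SD, that of Plpp3 (8.25), and median centring 0. Taking the median or leaving out 1 of 4 arrays cannot move a level that far. No paired analysis was possible because the controls were compared with no other group. Levels below background have no order.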
